A study of Mus musculus with 15 samples.

Results

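The genes described here are the 6 genes of hepatic gluconeogenesis G6pc, Pck1, Fbp1, Pcx, Slc37a4 and Ppargc1a, taken by symbol from the 20325 genes that each liver's file lists. Their RNA was measured by RNA sequencing in 15 livers of male C57BL/6J mice, an inbred laboratory strain, dissected when 19 weeks old, in 5 groups of 3. ConvR mice acquired a microbiota from birth. GF mice were kept germ-free in isolators. ConvD mice were germ-free until 15 weeks of age, then received cecal contents of chow-fed ConvR donors by gavage and were dissected 4 weeks later. Diets began at 3 weeks of age and were chow or a high-fat high-sucrose diet, HF/HS. Chow gave 23.7% of energy as fat, 53.2% as carbohydrate and 23.1% as protein. HF/HS gave 44.6% as fat, 40.6% as carbohydrate and 14.8% as protein. The groups were ConvR HF/HS, GF HF/HS, ConvD chow, ConvR chow and GF chow. Mice were caged by group and ConvR and GF mice lived in separate isolators, so that cage or isolator and group cannot be told apart. All mice had free access to food, and the hour of dissection and any fast before it are not given in the sources used here.

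Gluconeogenesis makes glucose from lactate, alanine and other amino acids, and glycerol, and the liver uses it to hold blood glucose during fasting. It runs glycolysis backwards except at steps that glycolysis cannot reverse, which are bypassed by pyruvate carboxylase (Pcx), phosphoenolpyruvate carboxykinase (Pck1), fructose 1,6-bisphosphatase (Fbp1) and glucose 6-phosphatase (G6pc). Slc37a4 carries glucose 6-phosphate into the endoplasmic reticulum, where G6pc acts. Ppargc1a encodes PGC-1α, a coactivator that raises transcription of Pck1 and G6pc in fasting, and glucagon, through CREB, and glucocorticoids activate these genes while insulin represses them through FOXO1.

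The promoters of the 3 genes that spread more than 4-fold over the 15 livers are shown because glucagon and insulin act on them. All 6 genes matched the RefSeq promoter table (build GRCm38.p6), with 9 promoters, and each sequence is the 250 bases before the start, 5′ to 3′ on the gene's strand. The mouse G6pc promoter lies at chr11:101367466-101367715 (plus strand), that of Pck1 at chr2:173152823-173153072 (plus strand) and that of Ppargc1a at chr5:51567726-51567975 (minus strand). Capitals mark motif matches.
G6pc: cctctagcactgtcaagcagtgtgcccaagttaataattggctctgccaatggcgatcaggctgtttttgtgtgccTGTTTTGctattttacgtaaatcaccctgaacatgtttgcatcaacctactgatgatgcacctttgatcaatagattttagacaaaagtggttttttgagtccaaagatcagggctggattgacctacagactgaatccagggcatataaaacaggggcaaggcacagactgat
Pck1: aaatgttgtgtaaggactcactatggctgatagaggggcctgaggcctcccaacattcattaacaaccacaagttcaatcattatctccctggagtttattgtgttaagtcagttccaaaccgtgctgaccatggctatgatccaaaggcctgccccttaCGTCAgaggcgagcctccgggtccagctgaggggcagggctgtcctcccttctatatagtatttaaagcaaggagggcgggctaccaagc
Ppargc1a: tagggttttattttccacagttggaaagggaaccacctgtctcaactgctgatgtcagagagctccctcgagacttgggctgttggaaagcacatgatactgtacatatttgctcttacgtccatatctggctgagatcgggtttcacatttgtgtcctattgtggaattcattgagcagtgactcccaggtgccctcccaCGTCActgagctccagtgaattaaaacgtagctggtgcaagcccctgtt
The motifs searched on both strands were the cAMP response element TGACGTCA, its core TGACG, which the full element contains, a forkhead site GTAAACA, the insulin response sequence TGTTTTG and the HNF4 direct repeat. The G6pc promoter held TGTTTTG from base -174 to base -168 before the start, as did 5.56% of the 32851 promoters in the table. The Pck1 promoter held the core on the minus strand, printed as its reverse complement CGTCA, from base -90 to base -86. The Ppargc1a promoter held it on the minus strand from base -49 to base -45, and 17.8% of all promoters held the core. Of the Slc37a4 promoters some also held the core, and those of Fbp1 and Pcx held none of the 5 motifs. Of all promoters, 1.55% held TGACGTCA, 3.17% GTAAACA and 0.0335% the HNF4 repeat. These matches describe letters in a window and were not tested as binding sites.

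Library totals ran from 14737578 to 21794811 estimated read counts. Some chow libraries stood apart. In ConvR chow mice 1 and 2 the TPM of 16 acute phase genes, made by hepatocytes in inflammation, summed to 123350 and 148732, against 23006 in ConvR chow mouse 3 and 16636 to 25119 in the 12 livers of the other groups. Gene by gene, 16 of the 16 genes in mice 1 and 2 and 7 of 16 in mouse 3 were above all 12 livers of the other groups. The share of all genes above those 12 livers was not counted for each mouse, so the 7 in mouse 3 have no background beside them. In mouse 3 the serum amyloid genes Saa1, Saa2 and Saa3 were at 789, 695 and 35.2 CPM, against at most 114, 53.8 and 5.1 CPM in the other groups. Orm2 and Lcn2 were at 94.1 and 75.2 CPM there, against at most 15.2 and 20.1 CPM. These 5 genes were chosen after their values were seen, and Saa1 and Saa2 are near-identical copies between which reads may be split. The TPM of 18 immediate early genes summed to 1280 in GF chow mouse 1 and 362 in GF chow mouse 2, against 75.3 to 199 in the rest. The correlation across genes between expression and gene length was negative in the 3 GF chow livers and in ConvR chow mice 2 and 3 (-0.451 to -0.0836), and positive in the other 10 (0.0581 to 0.38). Hepatocyte markers, 8 of 8 detected, summed to 83730 to 99549 TPM in ConvR HF/HS, 108997 to 112218 in GF HF/HS, 89560 to 105345 in ConvD chow, 40102 to 74649 in ConvR chow and 73932 to 91929 in GF chow livers. Alb alone gave 25322, 20163 and 47167 TPM in ConvR chow livers and 44529 to 54259 TPM in GF chow livers. Of the 8 markers 0 were called between these groups (median log2 fold change -0.38). The sums thus rest largely on Alb and do not measure the share of hepatocytes. Fewer hepatocytes and less RNA per hepatocyte cannot be told apart in whole liver, and neither was tested. Kidney tubule, the other main tissue that makes glucose, gave marker sums of at most 0.16 TPM. Neutrophil markers, 5 of 6 listed, summed to 62.9, 95.7 and 12.8 TPM in ConvR chow livers and to 2.65 to 26.1 TPM in the other groups. Adipocyte markers summed to 9.15 to 81.8 TPM in ConvR HF/HS livers, nearly all from the lipid droplet gene Cidec with Adipoq, Lep and Plin1 at 0, and to at most 3.63 TPM elsewhere. The part of these cell markers in the results was not tested.

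Levels below are CPM, estimated counts scaled to a common effective library total by TMM, given for mice 1, 2 and 3 of a group in that order. Differences are log2 fold changes ± standard error from edgeR's quasi-likelihood test, and a gene was called at an adjusted p below 0.05 over the 12377 genes tested. All 6 genes passed the filter on low counts, with 65.05 to 79285.5 estimated counts per liver. Per length, the median level over the 15 livers was 1365 TPM for Pck1, 886 TPM for Fbp1, 402 TPM for G6pc, 191 TPM for Pcx, 88.0 TPM for Slc37a4 and 2.22 TPM for Ppargc1a. The ratio of the highest to the lowest liver in CPM was 17.2 for G6pc, 15.9 for Pck1, 4.39 for Ppargc1a, 2.09 for Pcx, 1.87 for Fbp1 and 1.79 for Slc37a4. G6pc and Pck1 thus had the widest ranges. Paralogs were scarce: Pck2, the mitochondrial enzyme, ran from 2.1 to 4.88 CPM, G6pc3, the ubiquitous phosphatase, from 2.92 to 5.01 CPM, and Fbp2, the muscle enzyme, reached at most 0.388 CPM.

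**Figure D1:**
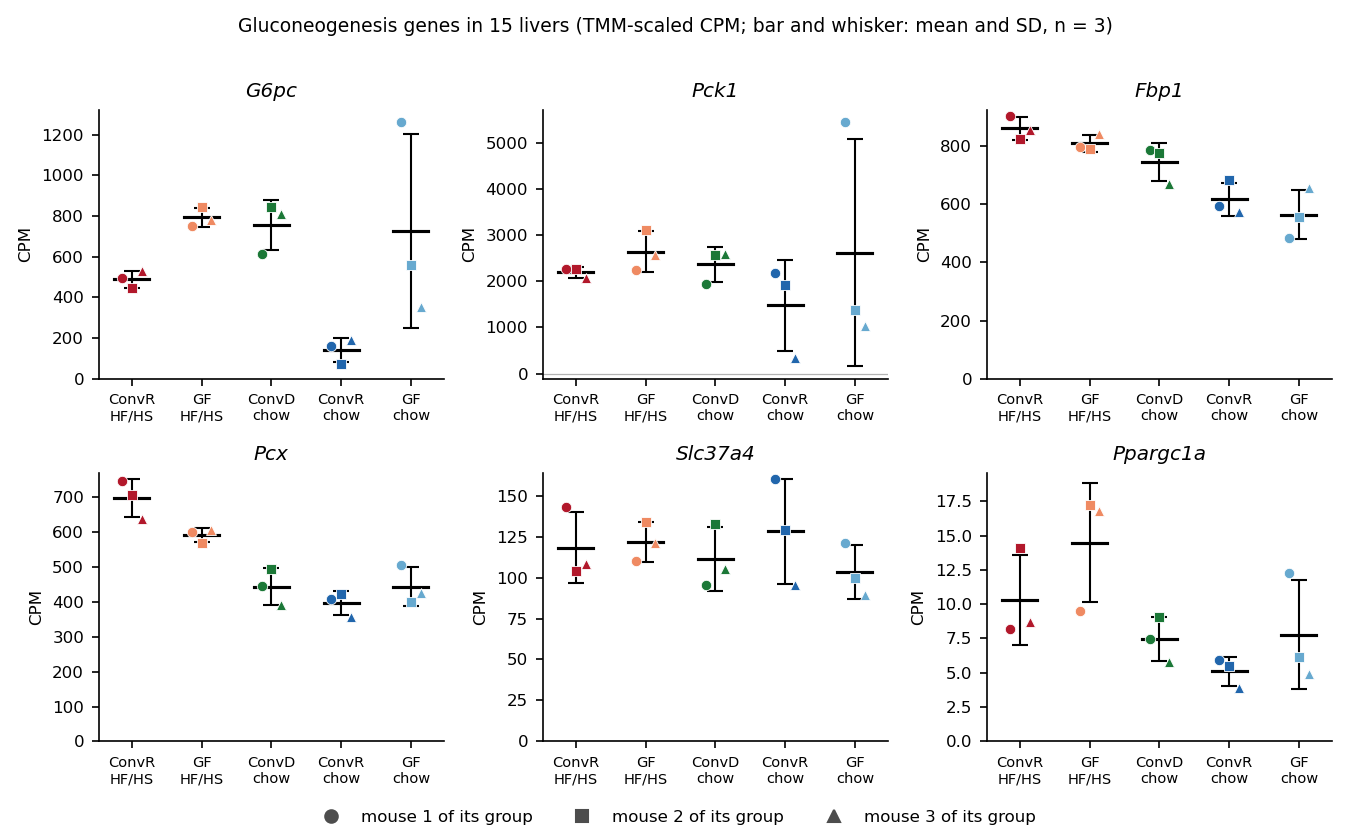
Level of each of the 6 genes in each liver (vertical axis, TMM-scaled CPM) by group (horizontal axis); points are mice, marked by their number, and bars and whiskers are the mean and SD of 3 mice. G6pc lies between 73.4 and 188 CPM in the ConvR chow livers, below every other liver, and Pcx is highest in the HF/HS groups.

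Glucose 6-phosphatase, the last step, separated the ConvR chow livers from all others. G6pc was measured at 494, 444 and 529 CPM in ConvR HF/HS livers and at 753, 847 and 781 CPM in GF HF/HS livers. It was at 615, 843 and 812 CPM in ConvD chow livers, 162, 73.4 and 188 CPM in ConvR chow livers, and 1264, 561 and 351 CPM in GF chow livers. The 3 ConvR chow livers were the lowest of the 15, and the next lowest was GF chow mouse 3 at 351 CPM. In order of group mean, GF HF/HS (794 ± 48.1 CPM, SD, n = 3), ConvD chow (756 ± 124 CPM) and GF chow (725 ± 478 CPM) overlapped each other. ConvR HF/HS (489 ± 43.0 CPM) overlapped GF chow but not ConvR chow (141 ± 59.9 CPM).

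G6pc fell in ConvR chow against GF chow livers, with a log2 fold change of -2.36 ± 0.39 (95% interval -3.21 to -1.52, adjusted p = 0.0106), a 5.14-fold lower level, with all 3 ConvR chow livers below all 3 GF chow livers. It was the 1 of 6 genes called in that comparison, where 4.72% of all genes were called, 2.55% higher and 2.17% lower. G6pc was 5.37-fold higher in ConvD chow than in ConvR chow livers (2.42 ± 0.40, adjusted p = 0.00931), again the 1 of 6 called, with 5.50% of all genes called, 2.20% higher and 3.30% lower. ConvD chow and GF chow livers differed by 0.06 ± 0.37 (95% interval -0.74 to 0.86, adjusted p = 0.942), and their ranges overlapped. The 2 comparisons with GF chow share those 3 livers, and the 2 with ConvR chow share theirs.

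Low G6pc was found in all 3 ConvR chow livers, whereas acute phase genes were broadly raised only in mice 1 and 2. In mouse 3 their sum of 23006 TPM lay within the range of the other groups (16636 to 25119 TPM). Of the 16 genes, 7 in mouse 3 were above all 12 livers of the other groups. ConvR chow mice 1 and 2 had the highest acute phase sums, and mouse 3, at 188 CPM of G6pc, had Saa1, Saa2, Saa3, Orm2 and Lcn2 above all 12 livers of the other groups, so that low G6pc and these raised genes cannot be told apart by leaving out mice 1 and 2. Without mice 1 and 2, which leaves 1 ConvR chow liver, the log2 fold change was -1.95 against GF chow and 2.01 for ConvD chow against ConvR chow. Neither was called. Fitted without the other groups, ConvR chow against GF chow gave -2.36 with an adjusted p of 0.212, and that fit called 0 of 11957 genes. Without ConvD chow mouse 2, ConvD chow against ConvR chow gave 2.34 with an adjusted p of 0.0544. GF chow mouse 1, the liver with the highest immediate early sum, also had the highest G6pc, and without it the difference from GF chow was -1.68 (adjusted p = 0.0193). Without ConvR chow mice 1 and 2 and GF chow mouse 1 together, G6pc in ConvR chow against GF chow was -1.28 and no longer called (adjusted p = 0.141), and ConvD chow against GF chow was called at 0.73 (adjusted p = 0.0447). The part of the inflammatory, early gene and length patterns in these differences was not tested.

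On HF/HS, ConvR and GF livers separated in G6pc without a call. All 3 ConvR HF/HS livers held less G6pc than all 3 GF HF/HS livers, with a log2 fold change of -0.70 ± 0.38 (95% interval -1.50 to 0.11, adjusted p = 0.411), which was not called. None of the 6 genes was called there by edgeR's quasi-likelihood test, and 0 of 6 had an unadjusted p below 0.05. DESeq2 also called 0 of them. Of all genes 1.62% were called, 0.881% higher and 0.735% lower. With the HF/HS groups fitted alone, G6pc was called at -0.69 (adjusted p = 0.0139). The diet comparison within ConvR mice was called: G6pc was 3.47-fold higher on HF/HS than on chow (1.79 ± 0.39, adjusted p = 0.00753). Without ConvR chow mice 1 and 2 it was 1.38 and not called (adjusted p = 0.165). In GF mice HF/HS and chow differed by 0.13 ± 0.37 (95% interval -0.67 to 0.93, adjusted p = 0.862), and without ConvR chow mice 1 and 2 and GF chow mouse 1 together the difference was called at 0.80 (adjusted p = 0.0223). The interaction, the diet difference in ConvR minus that in GF mice, was 1.66 ± 0.53 for G6pc (unadjusted p = 0.00748, adjusted p = 0.248), so that the diet effects were not shown to differ.

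Slc37a4, the transporter that supplies G6pc, was not called lower where G6pc was. Slc37a4 was at 143, 104 and 108 CPM in ConvR HF/HS, 110, 134 and 121 CPM in GF HF/HS and 95.7, 133 and 105 CPM in ConvD chow livers. It was at 160, 129 and 95.4 CPM in ConvR chow and 89.1 to 121 CPM in GF chow livers. Its group means ran from 104 to 128 CPM, all neighbouring groups overlapped, and ConvR chow, where G6pc was lowest, had the highest mean CPM. In TPM the ConvR chow mean was 85.5, above GF chow (76.8) and below ConvD chow (90.1), GF HF/HS (92.6) and ConvR HF/HS (104). Slc37a4 was called in none of the 7 comparisons, with log2 fold changes between -0.35 ± 0.26 and 0.31 ± 0.19. Per length, the ratio of G6pc to Slc37a4 was 0.526 to 1.82 in ConvR chow livers and 3.21 to 9.64 in the other 12.

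Pck1, which turns oxaloacetate into phosphoenolpyruvate, varied widely between mice within the ConvR chow and GF chow groups. Its level was 2263, 2257 and 2062 CPM in ConvR HF/HS, 2240, 3115 and 2568 CPM in GF HF/HS and 1934, 2577 and 2592 CPM in ConvD chow livers. It was 2175, 1918 and 344 CPM in ConvR chow livers and 5457, 1369 and 1031 CPM in GF chow livers. ConvR chow mouse 3 was the lowest of the 15 and GF chow mouse 1 the highest. All groups adjacent in mean overlapped. Pck1 was called in none of the 7 comparisons. ConvR chow against GF chow gave -0.82 ± 0.59 (95% interval -2.09 to 0.44, adjusted p = 0.42), and 0.32 without GF chow mouse 1. Without ConvR chow mice 1 and 2, which leaves 1 ConvR chow liver that is assumed to vary like the rest, it was -2.93 (adjusted p = 0.369), and without GF chow mouse 1 as well it was called at -1.81 (adjusted p = 0.0173). Without those 3 livers Pck1 was also called in ConvD chow against ConvR chow (2.78, adjusted p = 0.000516), ConvR HF/HS against ConvR chow (2.69, adjusted p = 0.000592) and GF HF/HS against GF chow (1.14, adjusted p = 0.00468).

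Pck1 and G6pc did not keep a fixed proportion in ConvR chow livers. The ratio of Pck1 to G6pc in TPM was 3.91, 4.34 and 3.32 in ConvR HF/HS and 2.54, 3.14 and 2.81 in GF HF/HS livers. It was 2.69, 2.61 and 2.72 in ConvD chow, 11.5, 22.3 and 1.56 in ConvR chow, and 3.68, 2.08 and 2.51 in GF chow livers. ConvR chow mice 1 and 2, the livers with the highest acute phase sums, held Pck1 within the range of the other groups while G6pc was low, and in mouse 3 both genes were low. In GF chow mouse 1 both were high.

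**Figure D2:**
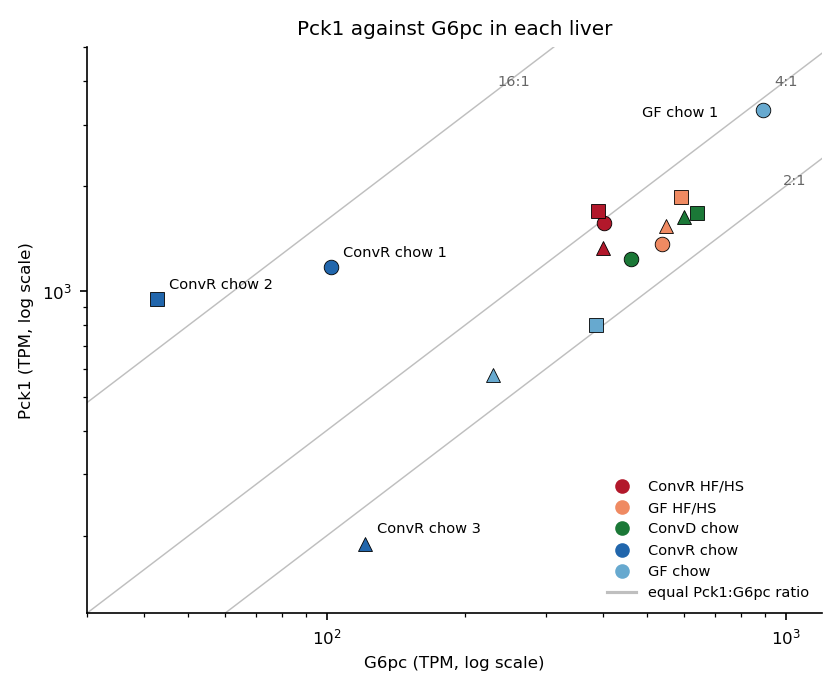
Pck1 (vertical axis, TPM, log scale) against G6pc (horizontal axis, TPM, log scale) in each of the 15 livers, coloured by group; grey lines join equal ratios. ConvR chow mice 1 and 2 lie at ratios of 11.5 and 22.3, and the other 13 livers lie between 1.56 and 4.34.

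Pcx, the mitochondrial entry from pyruvate, was higher on HF/HS in both microbiota states. Pcx stood at 747, 706 and 639 CPM in ConvR HF/HS, 602, 569 and 607 CPM in GF HF/HS and 446, 496 and 391 CPM in ConvD chow livers. It stood at 409, 422 and 357 CPM in ConvR chow and 507, 399 and 425 CPM in GF chow livers. Every HF/HS liver exceeded every chow liver, and the 3 chow groups overlapped. Pcx rose with HF/HS in ConvR mice by 0.82 ± 0.12 (1.76-fold, adjusted p = 0.000852) and in GF mice by 0.42 ± 0.12 (1.34-fold, adjusted p = 0.0411). The GF call ended without any 1 of GF chow mice 2 or 3 or the GF HF/HS mice (adjusted p 0.0884 to 0.124), on TPM (0.053), with no filter on low counts (0.0525), with the compared groups fitted alone (0.0876) and with the length trend removed (0.0918). All ConvR HF/HS livers lay above all GF HF/HS livers, with a difference of 0.23 ± 0.12 that was not called (adjusted p = 0.372). The interaction for Pcx was 0.40 ± 0.17 (adjusted p = 0.345).

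Fbp1, which removes a phosphate from fructose 1,6-bisphosphate, also rose on HF/HS in both states. Fbp1 was at 905, 826 and 857 CPM in ConvR HF/HS, 798, 791 and 844 CPM in GF HF/HS and 788, 778 and 671 CPM in ConvD chow livers. It was at 594, 683 and 575 CPM in ConvR chow and 484, 556 and 655 CPM in GF chow livers. All 6 HF/HS livers were above all 9 chow livers. HF/HS against chow gave 0.48 ± 0.12 in ConvR mice (1.40-fold, adjusted p = 0.0155) and 0.52 ± 0.12 in GF mice (1.43-fold, adjusted p = 0.019), and the interaction was -0.04 ± 0.17 (95% interval -0.40 to 0.32, adjusted p = 0.946). The ConvR call ended without ConvR chow mouse 1 (adjusted p = 0.0599), without ConvR HF/HS mouse 1 (0.0519), without ConvR chow mice 1 and 2 together (0.081) and with the compared groups fitted alone (0.0676). The GF call ended without any 1 GF HF/HS mouse (adjusted p 0.0564 to 0.0729) and with the compared groups fitted alone (0.0683). ConvD chow livers were all above GF chow livers, a difference of 0.40 ± 0.12 that was not called (adjusted p = 0.0625). In that comparison 0 of 6 genes were called by edgeR's quasi-likelihood test and 1 had an unadjusted p below 0.05. DESeq2 called 1. Of all genes 5.59% were called, 2.25% higher and 3.34% lower.

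Ppargc1a, the coactivator, was the least abundant of the 6. It was at 8.17, 14.1 and 8.67 CPM in ConvR HF/HS, 9.47, 17.2 and 16.8 CPM in GF HF/HS and 7.47, 9.08 and 5.82 CPM in ConvD chow livers. It was at 5.94, 5.49 and 3.92 CPM in ConvR chow and 12.3, 6.17 and 4.88 CPM in GF chow livers. The ConvR HF/HS livers all lay above the ConvR chow livers, and the GF groups overlapped through GF chow mouse 1. HF/HS against chow gave 1.01 ± 0.34 in ConvR mice (95% interval 0.28 to 1.74, adjusted p = 0.0632) and 0.92 ± 0.33 in GF mice (95% interval 0.21 to 1.62, adjusted p = 0.0941), neither of which was called. DESeq2 called the ConvR difference (adjusted p = 0.0197), as did limma on TPM (0.00975). On TPM 95.6% of the 6100 genes called in that comparison were higher, and the all-gene median log2 fold change was 0.296. Without GF chow mouse 1 the GF difference was called, at 1.40 (adjusted p = 0.0233).

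Over the 6 genes, 3 of 6 were called higher on HF/HS than on chow in ConvR mice, where 14.6% of all genes were called, 6.75% higher and 7.80% lower. Their median log2 fold change was 0.70, against -0.015 over all genes tested. In GF mice 2 of 6 were called higher, where 9.55% of all genes were called, 4.10% higher and 5.45% lower, and the medians were 0.32 and -0.009. No member was called lower on HF/HS in either state. None of the 6 interactions was called by edgeR's quasi-likelihood test, 2 had an unadjusted p below 0.05, and DESeq2 called 0 of them. Over all genes the interaction called no gene (0 of 12377, 0.00%), 1573 genes had an unadjusted p below 0.05, and DESeq2 called 150. DESeq2 gave no adjusted p to 7200 of the 12377 genes there, so its calls were adjusted over a smaller set. The medians of the 6 genes were -0.37 for ConvR chow against GF chow, 0.03 for ConvD chow against GF chow, 0.41 for ConvD chow against ConvR chow and -0.16 for ConvR HF/HS against GF HF/HS, with all-gene medians between -0.008 and -0.003. CPM ranges did not overlap for 1 of the 6 genes in ConvR chow against GF chow (19.5% of all genes), 1 in ConvD chow against GF chow (28.8%) and 1 in ConvD chow against ConvR chow (30.1%). They did not overlap for 2 in ConvR HF/HS against GF HF/HS (27.4%), 4 in ConvR HF/HS against ConvR chow (32.3%) and 2 in GF HF/HS against GF chow (31.5%).

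**Figure D3:**
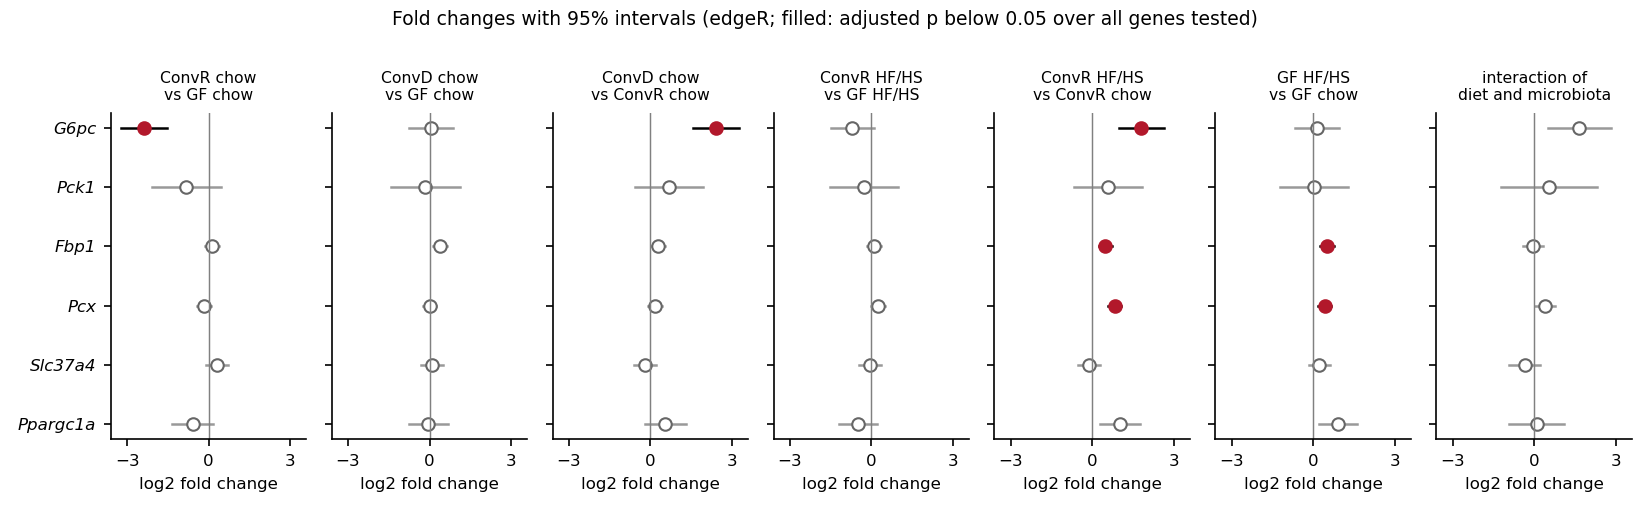
Log2 fold change (horizontal axis) with its 95% interval for each of the 6 genes (vertical axis) in each of the 7 comparisons, 3 mice per group; filled points passed an adjusted p of 0.05 over all genes tested. The largest called changes are those of G6pc, -2.36 for ConvR chow against GF chow and 2.42 for ConvD chow against ConvR chow.

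The other genes of the pathway and its control were followed in 5 lists, which share some genes. Of 75 genes named, 73 were tested beside the 6. In ConvR chow against GF chow livers 2 of the 73 were higher, 7 lower and 64 not called, where 2.55% of all genes were higher and 2.17% lower. Among 25 regulators 1 was higher and 4 were lower (median -0.09). The lower ones included the insulin receptor substrates: Irs2 was at 8.95 ± 3.05 CPM in ConvR chow and 37.6 ± 31.5 CPM in GF chow livers (-2.06 ± 0.44, adjusted p = 0.0255), and Irs1 at 17.3 ± 4.21 CPM and 31.1 ± 5.13 CPM in the same groups (-0.84 ± 0.18, adjusted p = 0.0264). Trib3, an inhibitor of AKT, changed by -1.31 ± 0.29 (adjusted p = 0.0282), and Nr4a1, a cAMP-induced nuclear receptor and immediate early gene, by -5.32 ± 0.98 (adjusted p = 0.0147). Nr4a1 was at 2.14, 1.93 and 1.03 CPM in ConvR chow and 159, 38.6 and 9.1 CPM in GF chow livers. Irs2 was at 73.9, 22.0 and 17.0 CPM in GF chow livers. Both were highest in GF chow mouse 1, the liver with the highest immediate early sum, and its part in these changes was not tested.

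Igfbp1, a FOXO1 target that insulin represses, was at 69.6, 50.6 and 10.3 CPM in ConvR chow livers and at 1195, 245 and 66.4 CPM in GF chow livers. GF chow mouse 3 lay inside the ConvR chow range, and the difference was called (-3.53 ± 0.83, adjusted p = 0.0332). Of 12 other FOXO1, CREB and glucocorticoid targets, 1 was higher and 3 were lower. The higher one, Fkbp5, a glucocorticoid-induced immunophilin, had 62.5, 67.3 and 16.2 CPM in ConvR chow and 14.3 to 18.7 CPM in GF chow livers (1.59 ± 0.37, adjusted p = 0.0318), so that ConvR chow mouse 3 was not above the GF range. Foxo1 itself was at 25.9 ± 5.38 CPM in ConvR chow and 27.6 ± 4.93 CPM in GF chow livers (adjusted p = 0.788). Gckr changed by -0.52 ± 0.12 (adjusted p = 0.0303), the 1 gene lower of 8 for opposing glycolytic steps and glucose transport. Got1, the cytosolic aspartate aminotransferase, was the 1 gene lower of 18 reversible steps and shuttles and of 17 substrate entry genes (adjusted p = 0.0357). Creb1, which carries the glucagon signal, was the 1 regulator higher (0.36 ± 0.09, adjusted p = 0.0337).

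In ConvD chow against GF chow livers 4 of the 73 were higher, 2 lower and 67 not called, where 2.25% of all genes were higher and 3.34% lower, so that nothing particular to the pathway is read from these counts. Pklr, the pyruvate kinase that opposes Pcx and Pck1, was at 192, 269 and 148 CPM in ConvD chow livers and at 84.3, 106 and 111 CPM in GF chow livers (1.01 ± 0.22, adjusted p = 0.0207). Gyk, the glycerol kinase, rose by 0.49 ± 0.11 (adjusted p = 0.0257), Gpi1, the phosphoglucose isomerase, by 0.39 ± 0.10 (0.0381) and Creb1 by 0.40 ± 0.09 (0.0206). Gcgr, the glucagon receptor, changed by -0.39 ± 0.09 (0.0309) and Nr4a1 by -4.25 ± 0.89 (0.0196). Nr4a1 was at 6.23, 2.4 and 2.17 CPM in ConvD chow livers, against 159, 38.6 and 9.1 CPM in GF chow livers. In ConvD chow against ConvR chow livers 3 were higher, 2 lower and 68 not called, near the 2.20% higher and 3.30% lower of all genes. Irs1 (1.07 ± 0.18, 0.0102), Pklr (0.97 ± 0.22, 0.0244) and the amino acid transporter gene Slc38a4 (0.39 ± 0.10, 0.0437) were the higher ones. Fkbp5 (-1.69 ± 0.37, 0.0233) and Pfkfb1, which sets fructose 2,6-bisphosphate, an inhibitor of Fbp1 (-0.75 ± 0.20, 0.0477), were the lower ones.

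On HF/HS, 0 of the 73 genes were called between ConvR and GF livers by edgeR's quasi-likelihood test, where 1.62% of all genes were called. Irs2 was lower in all 3 ConvR HF/HS livers (6.23 to 7.21 CPM) than in the GF HF/HS livers (16.7 to 24.6 CPM), with a difference of -1.65 ± 0.44 (adjusted p = 0.0794). Igfbp1 was at 80.9 ± 30.4 CPM in ConvR HF/HS and 171 ± 44.0 CPM in GF HF/HS livers (adjusted p = 0.552).

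HF/HS against chow gave calls in every list, including Pklr, which works against gluconeogenesis. In ConvR mice 19 of the 73 genes were higher, 3 lower and 51 not called, where 6.75% of all genes were higher and 7.80% lower. The list counts of all comparisons come from the fit with all 15 libraries and were not recounted without ConvR chow mice 1 and 2. Pklr was at 289, 394 and 358 CPM in ConvR HF/HS and 106, 77.5 and 128 CPM in ConvR chow livers (1.74 ± 0.22, adjusted p = 0.000306). Gpi1 rose by 0.79 ± 0.10 (adjusted p = 0.000306). Of 18 reversible steps and shuttles, 6 were higher and 0 lower, of 17 substrate entry genes 5 were higher and 0 lower, and of 25 regulators 5 were higher and 2 lower. Among the regulators Trib3 rose by 1.59 ± 0.29 (0.00284), Ppara, the fatty acid receptor, by 0.83 ± 0.16 (0.00353) and Foxo1 by 0.59 ± 0.16 (0.0264). Pdk2 and Pdk4, which restrain pyruvate dehydrogenase, rose by 0.54 ± 0.10 (0.00314) and 1.68 ± 0.42 (0.0165). Slc2a2, the glucose transporter through which liver releases glucose, rose by 0.88 ± 0.22 (0.0166). The 3 lower genes were Gcgr (-0.35 ± 0.09, 0.0228), the acetyltransferase gene Kat2a (-0.35 ± 0.10, 0.0315) and Fkbp5 (-1.23 ± 0.36, 0.0351). Fkbp5 was at 62.5, 67.3 and 16.2 CPM in ConvR chow and 20.2, 27.3 and 14.8 CPM in ConvR HF/HS livers. ConvR chow mouse 3 thus lay within the HF/HS range.

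In GF mice 11 of the 73 were higher, 1 lower and 61 not called, where 4.10% of all genes were higher and 5.45% lower. Pklr was at 390, 449 and 363 CPM in GF HF/HS and 84.3, 106 and 111 CPM in GF chow livers (1.99 ± 0.22, adjusted p = 0.000601). Gpi1 (0.64 ± 0.10, 0.0038), Ppara (0.94 ± 0.16, 0.00481) and Gyk (0.59 ± 0.11, 0.00825) also rose, and Gcgr was the lower gene (-0.51 ± 0.09, 0.0074). Tat, tyrosine aminotransferase, was called in none of the 7 comparisons. Clock genes, 14 in all, summed to 175 to 210 TPM in ConvR HF/HS, 179 to 188 TPM in GF HF/HS, 116 to 149 TPM in ConvD chow, 104 to 166 TPM in ConvR chow and 116 to 174 TPM in GF chow livers. Single clock genes ranged more widely than these sums, for example Dbp from 0.699 to 10.9 CPM and Per1 from 3.02 to 35.1 CPM. The sums therefore do not describe the phase of the clock. The part of the clock genes in the diet differences was not tested.

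**Figure D4:**
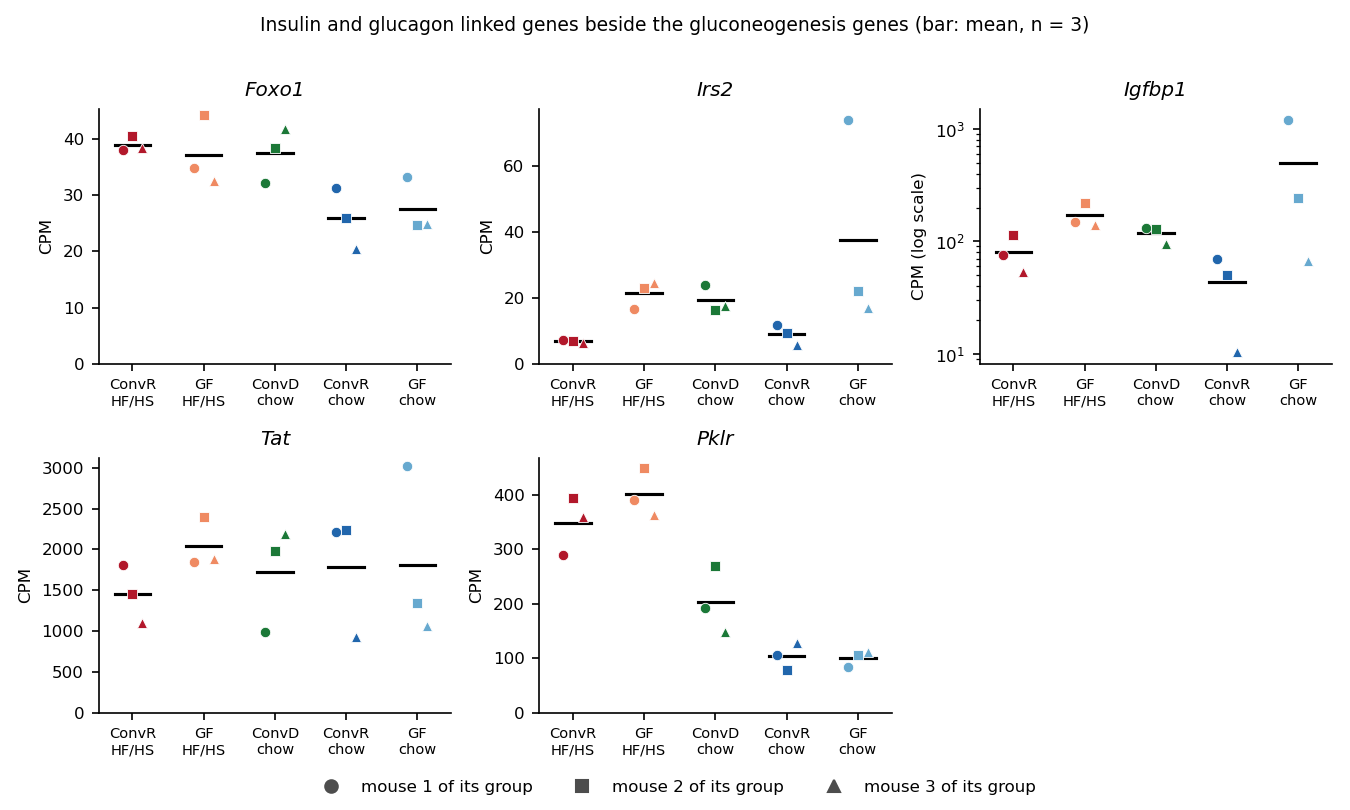
Levels (vertical axis, CPM, log scale for Igfbp1) of Foxo1, Irs2, Igfbp1, Tat and Pklr in each liver by group (horizontal axis); points are mice and bars are means of 3. Pklr lies at 289 to 449 CPM in HF/HS livers and at 77.5 to 269 CPM in chow livers, and Igfbp1 reaches 1195 CPM in GF chow mouse 1.

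Across the 15 livers, each of the 6 genes was closest in pattern to different genes among 10050 compared, by Pearson correlation of log2 CPM, given as a description. G6pc was closest to Faah (0.902), Mia2 (0.90) and Eif4b (0.892), and Pck1 to Per1 (0.927), Zbtb2 (0.911) and Pptc7 (0.902). Per1 was listed both as a clock gene and among the FOXO1, CREB and glucocorticoid targets. Like Pck1, it was highest in GF chow mouse 1 (35.1 CPM) and lowest in ConvR chow mouse 3 (3.02 CPM). Genes close to Fbp1 were Tcn2 (0.924) and Dag1 (0.909), and Pcx was closest to Dak (0.93), Apoc2 (0.921) and Gpc1 (0.92). Slc37a4 was closest to Ogfod1 (0.803), Ppp2r5e (0.787) and Mast3 (0.782), and Ppargc1a to Calcoco1 (0.891), Ppp1r3g (0.886) and Fgd6 (0.878). Pck1 and G6pc correlated at 0.536 with each other. The livers differ in group, depth and length trend, which these values share.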

How the data were processed

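Liver RNA was sequenced from poly(A) stranded libraries, per the labels' protocols. The deposited expected counts are RSEM 1.2.23 estimates per gene from Bowtie2 alignments to mm9, per the submitters' processing notes. The deposited TPM and FPKM values scale them by length and depth. Of 15 files, 2 listed the 20325 genes in another order and all were joined by symbol.

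The 6 genes and all lists were chosen with earlier results of these data known. Rounded expected counts entered edgeR 4.0.16 (R 4.3.3): filterByExpr with a minimum count of 10, TMM, a mean for each of the 5 groups from all 15 libraries (10 residual degrees of freedom, biological coefficient of variation 0.149), and the two-sided quasi-likelihood F test with Benjamini-Hochberg adjustment over 12377 genes. Each standard error was obtained by dividing the size of the log2 fold change by the root of its F statistic, and intervals cover 95%. Log2 CPM used a prior count of 2. In each comparison the 6 called list genes with the smallest adjusted p were named, and Foxo1, Irs2, Igfbp1, Tat and Pklr were followed; other called list genes were named after their values were seen. Likeness covered genes of at least 2 mean CPM, with the 3 closest named and predicted genes passed over. Some genes that these rules took are not reported here. Promoters come from RefSeq (GRCm38.p6), a build other than that of the files. Alternatives were DESeq2 1.42.0 size factors and Wald test, limma 3.58.1 on log2(TPM + 1), no filter, a stricter filter, compared groups alone, a replicate block, libraries left out and a length trend removed (lowess, span 0.5). Leaving out ConvR chow mice 1 and 2 with GF chow mouse 1 was added after the data were seen. The scripts' fits were tested on simulated data. Labels do not say whether mice of a group shared a litter. Counting error is small beside the spread between mice, but less so for Ppargc1a, with 65.05 to 327.93 estimated counts per liver.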

Additional observations from a re-analysis of the deposited data

How the results depend on the processing

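Of 684 recomputed log2 fold changes of the 6 genes, 44 changed sign, and each of those belonged to a difference that was not called at first. G6pc ran from -2.70 to -1.28 in ConvR chow against GF chow, and its call was lost with the groups alone, without ConvR chow mice 1 and 2, and without these and GF chow mouse 1 (-1.28, adjusted p = 0.141). It ran from 2.01 to 2.78 in ConvD chow against ConvR chow, where the call was lost without ConvR chow mice 1 and 2 and without ConvD chow mouse 2. On TPM the sign changed for Fbp1 (-0.01) in ConvR chow against GF chow, Pck1 (0.38) and Ppargc1a (0.08) in ConvD chow against GF chow, and Fbp1 (0.30) and Slc37a4 (0.01) in the interaction. On TPM it also changed for Slc37a4 in ConvD chow against ConvR chow (0.09), ConvR HF/HS against GF HF/HS (0.15) and ConvR HF/HS against ConvR chow (0.29). Without ConvR chow mice 1 and 2, Slc37a4 gave -0.12 in ConvR chow against GF chow, 0.22 in ConvD chow against ConvR chow, 0.31 in ConvR HF/HS against ConvR chow and 0.08 in the interaction, and Fbp1 gave 0.06 in the interaction. Without these and GF chow mouse 1, Fbp1 gave -0.08 in ConvR chow against GF chow and 0.18 in the interaction, Pck1 0.98 and Ppargc1a 0.44 in ConvD chow against GF chow, and Slc37a4 0.22 in ConvD chow against ConvR chow and 0.32 in ConvR HF/HS against ConvR chow.

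The number of the 6 genes called was 0 for ConvR chow against GF chow with the groups alone or without ConvR chow mice 1 and 2, and without the 3 libraries Pck1 was the 1 called in place of G6pc. For ConvD chow against GF chow it was 1 with a stricter filter, DESeq2, TPM or the length trend removed, and 2 without the 3 libraries. For ConvD chow against ConvR chow it was 3 on TPM, 0 without ConvR chow mice 1 and 2 and 2 without the 3 libraries. It was 1 for ConvR HF/HS against GF HF/HS with the groups alone, and 1 for ConvR HF/HS against ConvR chow without ConvR chow mice 1 and 2, where G6pc and Fbp1 lost their calls. For GF HF/HS against GF chow it was 1 with no filter, on TPM or with the length trend removed, 0 with the groups alone and 5 without the 3 libraries, and for the interaction 1 on TPM. The cause was not tested.

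Leaving out each mouse in turn, the number called ran from 0 to 1 for ConvD chow against GF chow and against ConvR chow, and from 0 to 3 for GF HF/HS against GF chow, where it was 0 without any 1 GF HF/HS mouse. Pck1 ran from -1.21 to 0.32 in ConvR chow against GF chow, -0.53 to 0.99 in ConvD chow against GF chow, -0.37 to 1.14 in GF HF/HS against GF chow and -0.58 to 0.94 in the interaction. G6pc ran from -0.27 to 0.74 in ConvD chow and from -0.20 to 0.81 in GF HF/HS livers, both against GF chow. Ppargc1a ran from -0.29 to 0.45 in ConvD chow against GF chow and -0.39 to 0.35 in the interaction, and Fbp1 from -0.16 to 0.06 there. Slc37a4 ran from -0.04 to 0.24 in ConvD chow against GF chow, -0.29 to 0.07 in ConvR HF/HS against ConvR chow and -0.19 to 0.05 in ConvR HF/HS against GF HF/HS.

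Same-numbered mice did not deviate together (correlations -0.23 to 0.246), so the numbers do not pair the mice. With the replicate number as a block, Pck1 in ConvD chow against GF chow gave 0.13, and no count of called members moved. Over all genes the number called was 584 for ConvR chow against GF chow (0 to 1655 under the alternatives), 692 for ConvD chow against GF chow (11 to 1164), 681 for ConvD chow against ConvR chow (6 to 3725), 200 for ConvR HF/HS against GF HF/HS (16 to 791), 1802 for ConvR HF/HS against ConvR chow (344 to 6100), 1182 for GF HF/HS against GF chow (259 to 1546) and 0 for the interaction (0 to 1192). On TPM the share of calls that were higher was, in the same order without the interaction, 17.1%, 88.5%, 94.6%, 93.8%, 95.6% and 64.8%, against 54.1%, 40.2%, 39.9%, 54.5%, 46.4% and 42.9% on counts. TPM moved the all-gene median to -0.104 in ConvR chow against GF chow, 0.209 in ConvD chow against ConvR chow, 0.157 in ConvR HF/HS against GF HF/HS, 0.296 in ConvR HF/HS against ConvR chow and 0.268 in the interaction, and TPM values there are to be read against these shifts.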
